A study of Mus musculus with 7 samples.

Results

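Nes, Prom1, Msi1, Msi2, Fabp7, Bmi1 and Nr2e1 are genes by which neural stem cells are commonly recognised. These 7 genes were taken by name from the 37620 mouse genes listed in each count table, and all 7 were among the 16068 genes tested. RNA had been sequenced from 7 brain tumours, each raised by putting glioblastoma stem-like cells of mouse into the brain of a nude mouse, a strain without mature T cells. Their source was the subventricular zone, a neural stem cell niche along the lateral ventricles, and they had been cultured for 10 to 15 passages in stem cell conditions before implantation. That origin is common to all groups, and the cells made up 2 lines. GSC1 carried the alterations labelled lgT/Ras, and GSC2 carried those labelled shp53, Nf1-/- and CDK4, that is, a short hairpin against p53, loss of the Ras regulator Nf1, and CDK4. There were 4 independent tumours of GSC1, replicates 1 to 4, and 3 of GSC2, replicates 1 to 3. Each set of alterations existed in 1 line, so a difference between the groups cannot be told apart from any other difference between these lines. The age of the mice is not given in the sources used here.

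The 7 genes stand for different layers of a stem cell. Nestin, the product of Nes, is an intermediate filament protein of dividing neuroepithelial cells, and also occurs in new blood vessels and reactive astrocytes. Prominin 1 (CD133, from Prom1) is a membrane protein of cell protrusions that has been used to sort neural and glioma stem cells, and Fabp7 encodes the brain lipid-binding protein of radial glia, which astrocytes and oligodendrocyte progenitors can also make. Musashi 1 and 2 (Msi1, Msi2) are RNA-binding proteins that repress translation of chosen messenger RNAs. Bmi1 encodes a subunit of Polycomb repressive complex 1, which keeps cell cycle inhibitors silent, and Nr2e1 encodes the orphan nuclear receptor TLX, which maintains stem cells of the forebrain. The mouse host and the implanted cells share a genome, so reads from tumour cells and from host brain were counted together. In such bulk samples fewer cells of a type and less RNA per cell cannot be told apart.

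The libraries held 18643155 to 32643408 reads counted on genes. Levels are given in CPM, the usual scaling of counts to library size, here with TMM factors. RNA of normal brain was summarised by a brain score, which averages the log2 CPM of a neuron list (12 genes) and a mature oligodendrocyte list (12 genes). In GSC1 it ran 6.41, 5.16, 8.97 and 8.19 from replicate 1 to replicate 4, and in GSC2 it ran 6.52, 8.02 and 7.86. The summed level of a list of 9 hindbrain and spinal cord genes, as mean log2 CPM, was 4.74 and 5.20 in GSC1 replicates 3 and 4 and between -2.56 and -2.12 in the other 5 tumours. In GSC1 replicates 3 and 4 and GSC2 replicate 3 long transcripts were under-represented: the difference in median log2 deviation, long genes (8000 bases or more) minus short genes (2000 or fewer), was -0.40, -0.36 and -0.70, against 0.02 to 0.64 elsewhere. These are called the 3 short-biased libraries below.

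Of the marker genes, Nes and Fabp7 varied the most among those found in every tumour, and in opposite directions. Nes fell and Fabp7 rose as the brain score rose. Their start regions are shown because these 2 genes carry the main pattern. The windows hold bases 250 to 51 before the start of transcription in RefSeq's annotation of GRCm38.p6, on the forward strand: chr3:87970843-87971042 for Nes and chr10:57784673-57784872 for Fabp7. Capitals mark matches, on either strand, to a SOX motif (ACAAT, or ATTGT on the other strand), a CCAAT box (CCAAT or ATTGG) or a GC box (GGGCGG or CCGCCC).
Nes: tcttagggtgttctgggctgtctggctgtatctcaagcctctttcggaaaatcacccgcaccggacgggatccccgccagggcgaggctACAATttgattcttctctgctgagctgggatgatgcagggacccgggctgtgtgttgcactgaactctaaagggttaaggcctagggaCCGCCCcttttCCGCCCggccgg
Fabp7: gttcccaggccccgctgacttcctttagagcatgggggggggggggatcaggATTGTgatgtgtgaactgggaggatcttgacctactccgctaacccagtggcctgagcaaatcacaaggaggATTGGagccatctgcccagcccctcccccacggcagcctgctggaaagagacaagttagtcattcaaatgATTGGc
The Nes window held 1 SOX match, 2 GC boxes and 0 CCAAT boxes, and the Fabp7 window held 1 SOX match, 2 CCAAT boxes and 0 GC boxes. Among 32817 start windows of the same length, 23.7% held the SOX motif, 28.4% a CCAAT box and 24.6% a GC box. A match is a stretch of letters and was not tested as a binding site.

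Nes, the filament gene, ran 544, 662, 116 and 148 CPM from replicate 1 to replicate 4 of GSC1, and 344, 268 and 119 CPM over the GSC2 replicates. GSC1 replicates 1 and 2 were higher than every GSC2 tumour, and GSC1 replicate 3 was lower than every GSC2 tumour, so the lines overlapped. The highest tumour was 5.69-fold above the lowest, where the median of that ratio over all genes tested was 2.88. The means were 368 ± 276 CPM (SD, n = 4) in GSC1 and 244 ± 114 CPM (SD, n = 3) in GSC2. The log2 fold change, GSC2 minus GSC1 in every case, was -0.59 (SE 0.70), and it did not pass edgeR's quasi-likelihood test (Benjamini-Hochberg adjusted p = 0.9999).

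Prom1, the CD133 gene, was lower in GSC1, with 10.0, 9.81, 13.6 and 16.4 CPM, than in GSC2, with 17.9, 28.4 and 20.3 CPM. Every GSC2 tumour was above every GSC1 tumour, although GSC2 replicate 1 exceeded GSC1 replicate 4 by little. The log2 fold change was 0.83 (SE 0.30, edgeR quasi-likelihood unadjusted p = 0.0250, adjusted p = 0.9999), the only unadjusted p under 0.05 among the 7 genes. An antisense gene, Gm16401, overlaps Prom1 in the annotation, and whether counting used strand is not given in the sources used here. A further gene, Gm42716, overlaps Prom1 on the same strand and is not among the genes counted. The Prom1 level is uncertain to that extent.

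Fabp7, the gene for the lipid carrier, measured 102, 84.1, 239.8 and 156 CPM across GSC1, in replicate order, and 139, 160.3 and 337 CPM across GSC2. The highest values of each line were in GSC1 replicate 3 and GSC2 replicate 3, the same tumours in which Nes was lowest in its line. The lines overlapped, with a log2 fold change of 0.54 (SE 0.46, edgeR quasi-likelihood adjusted p = 0.9999). Without GSC2 replicate 3 the fold change was 0.04. Astrocyte genes also varied, with a list score (10 genes, mean log2 CPM) of 5.93, 5.47, 8.99 and 8.58 across GSC1, in replicate order, and of 6.23, 7.82 and 7.52 across GSC2. Within GSC1, Fabp7 and the astrocyte score were both highest in replicate 3 and lowest in replicate 2. GSC2 replicate 3 had more Fabp7 than GSC1 replicate 3, with a lower astrocyte score. The part of astrocytes in the Fabp7 level was not tested.

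The Musashi genes varied little. Msi1 was at 39.6, 40.8, 59.3 and 54.3 CPM in GSC1 and at 75.0, 63.4 and 49.2 CPM in GSC2. Msi2 was at 125, 158, 131 and 135 CPM in GSC1 and at 209.7, 179 and 144 CPM in GSC2. In both genes GSC2 replicates 1 and 2 were above every GSC1 tumour, and GSC2 replicate 3 lay within the GSC1 range. The log2 fold changes were 0.37 (SE 0.25) for Msi1 and 0.37 (SE 0.22) for Msi2, and neither passed (edgeR quasi-likelihood adjusted p = 0.9999 for both). The highest tumour was 1.90-fold above the lowest for Msi1 and 1.68-fold for Msi2. Msi1 overlaps an antisense gene, 4930430O22Rik, which is not among the genes counted. Msi2 overlaps an antisense gene, Gm15893, with the same uncertainty about strand as for Prom1. It also overlaps a processed pseudogene, Gm11510, on the same strand, an overlap that the use of strand would not settle.

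Bmi1, the Polycomb gene, was at 60.4, 80.2, 55.0 and 55.5 CPM in GSC1 and at 103, 74.7 and 89.4 CPM in GSC2. GSC1 replicate 2 was above GSC2 replicate 2, so the lines overlapped by this 1 tumour, and the log2 fold change was 0.50 (SE 0.23, edgeR quasi-likelihood adjusted p = 0.9999). Nr2e1 was the rarest marker and the most uneven within a line. Its GSC1 levels, in replicate order, were 5.74, 3.79, 0 and 0.571 CPM, from 198, 103, 0 and 12 reads. Its GSC2 levels were 7.17, 8.98 and 7.92 CPM, from 141, 256 and 158 reads. All GSC2 tumours were above all GSC1 tumours, although GSC2 replicate 1 exceeded GSC1 replicate 1 by little (7.17 against 5.74 CPM). The 0 reads in GSC1 replicate 3 allow up to 0.119 CPM (3 counts in that library, counting error only), so the lowest GSC2 tumour was at least 60.2-fold higher than that tumour. Over the lines the log2 fold change was 1.66 (SE 1.25, edgeR quasi-likelihood adjusted p = 0.9999).

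**Figure D1:**
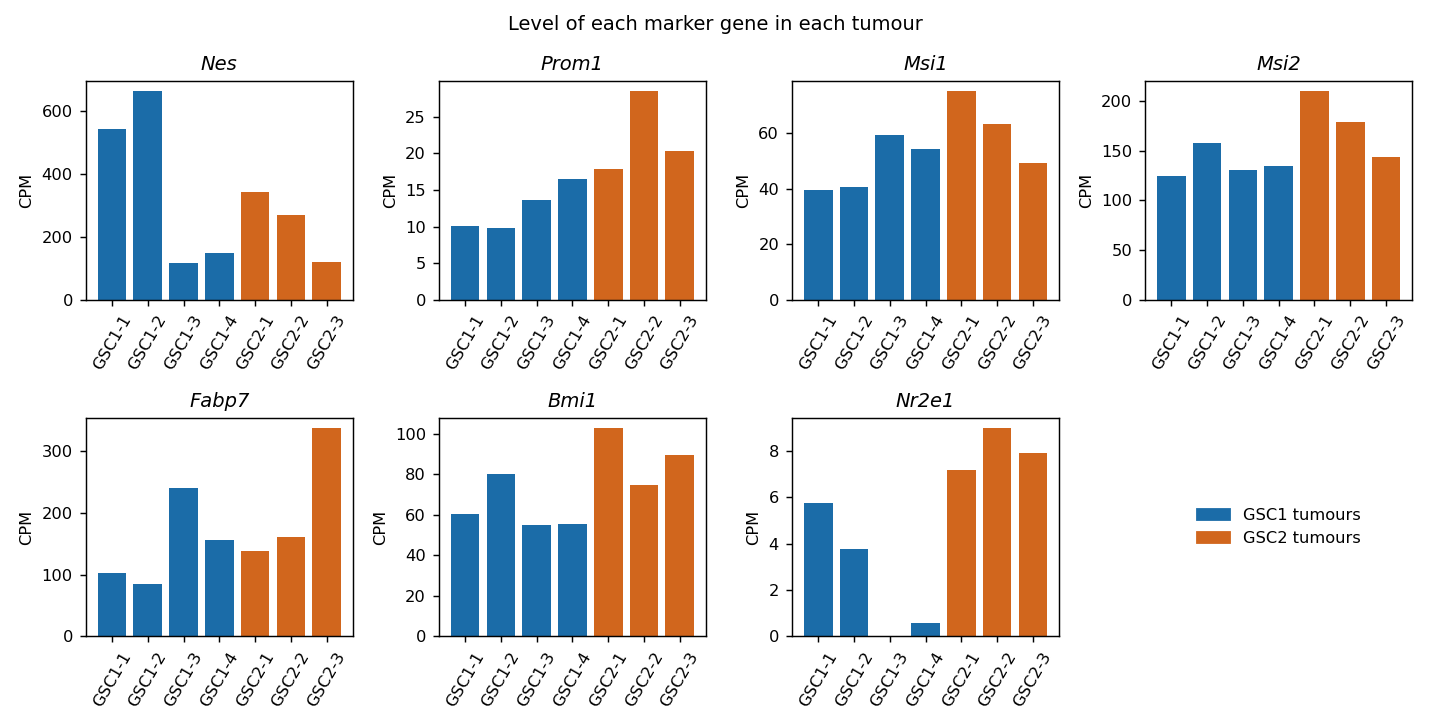
Level of each of the 7 marker genes (vertical axis, CPM from 0, a scale of its own for each gene) in each tumour, with 1 bar per tumour, GSC1 in blue and GSC2 in orange. Nes and Fabp7 vary several-fold within a line, Msi1 and Msi2 little, and Nr2e1 is at 0 and 0.571 CPM in GSC1 replicates 3 and 4.

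Compared per kilobase of the longest annotated transcript, the markers fell into a wide order. Fabp7 stood highest, at 198 ± 99.2 CPM per kb (SD over 7 tumours), followed by Nes (51.3 ± 35.4), Msi2 (24.0 ± 4.74), Bmi1 (20.6 ± 5.07), Msi1 (17.4 ± 4.04), Prom1 (4.07 ± 1.59) and Nr2e1 (1.49 ± 1.08). Neighbours in the middle of this order were not apart beyond their spread: Nes was above Msi2 in 5 of 7 tumours, Msi2 above Bmi1 in 6 of 7 and Bmi1 above Msi1 in 5 of 7. Msi1 was above Prom1, and Prom1 above Nr2e1, in all 7. Fabp7 was above Nes in 6 of 7 tumours, GSC1 replicate 2 being the exception. The ratio of Fabp7 to Nes per kb was 1.31, 0.885, 14.4 and 7.31 across GSC1, in replicate order, and 2.80, 4.16 and 19.7 across GSC2, so the lines overlapped widely. The highest ratios were in the 3 short-biased libraries. There genes of the length of Fabp7 (880 bases) deviated upward and those of the length of Nes (6126 bases) downward. The part of length in this ratio, and in the order of these 2 genes, was not tested. The ratio of Msi2 to Msi1 stayed between 1.08 and 1.88. These levels rest on the longest transcript, and shorter isoforms would raise them.

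**Figure D2:**
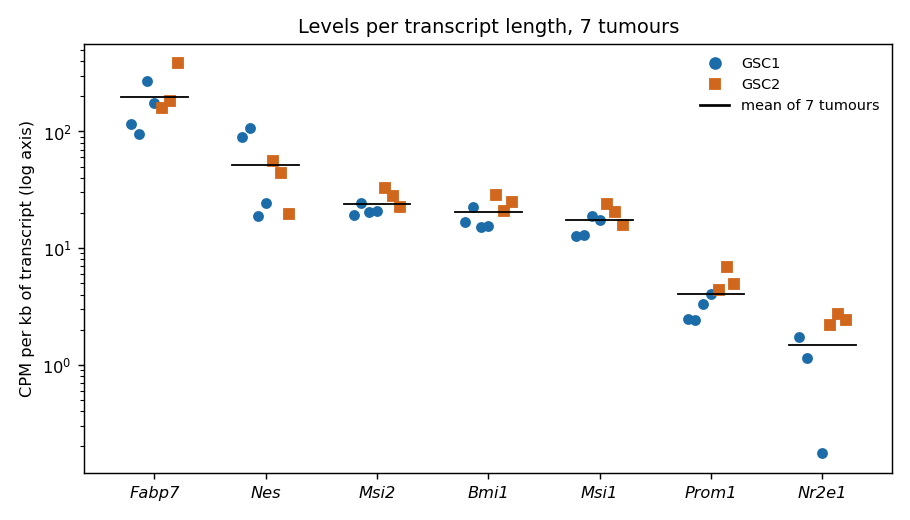
CPM per kilobase of transcript (vertical log axis) for the 7 genes in order of their mean over the 7 tumours (black lines), with 1 point per tumour, blue circles for GSC1 and orange squares for GSC2. The Nr2e1 value of 0 in GSC1 replicate 3 cannot be drawn on a log axis and is left out of the points but not of the mean.

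Between the lines, 6 of the 7 fold changes were positive, beside 7437 of the 16068 genes tested, and 0 genes passed. The median log2 fold change of the 7 was 0.50, against -0.03 over all genes tested. By edgeR's quasi-likelihood test 0% of the 16068 genes had an adjusted p under 0.05, and an unadjusted p under 0.05 was found for 1 of the 7 markers and for 4.21% of all genes. DESeq2 and limma-voom also called 0 of the 7, with 1 of the 7 at an unadjusted p under 0.05 in each. Over all 16068 genes DESeq2 called 192, with 1069 at an unadjusted p under 0.05, and limma-voom called 1, with 744. The tumours of the lines did not overlap for Prom1 and Nr2e1, in both cases with GSC2 above. This was so in either direction for 5.58% of all genes tested, and with GSC2 above for 3.05%. Direction did not change for any of the 7 genes in the 19 alternative analyses of this comparison, but sizes did. Nes ranged from -1.32 without the 2 GSC1 tumours with hindbrain genes to -0.07 once the brain score was a covariate. Nr2e1 ranged from 0.73 without those 2 tumours to 3.33 in limma-voom. Fabp7 ranged from 0.04 to 1.15 and Prom1 from 0.62 to 1.22.

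With the brain score as a covariate, fitted to compare the lines at an equal score, the fold changes of the genes other than Nes and Nr2e1 moved little. Prom1 was at 0.79, Bmi1 at 0.55, Fabp7 at 0.51, Msi2 at 0.39 and Msi1 at 0.37, with edgeR quasi-likelihood adjusted p of 0.125, 0.128, 0.398, 0.292 and 0.423. Nr2e1 was at 3.06 (adjusted p = 0.175) and Nes at -0.07 (adjusted p = 0.940). None of the 7 passed in this fit, in which 0.797% of all genes did. An unadjusted p under 0.05 was found for 4 of the 7 and for 16.3% of all genes. The score is measured in the same libraries, so this fit is a description at equal score.

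**Figure D3:**
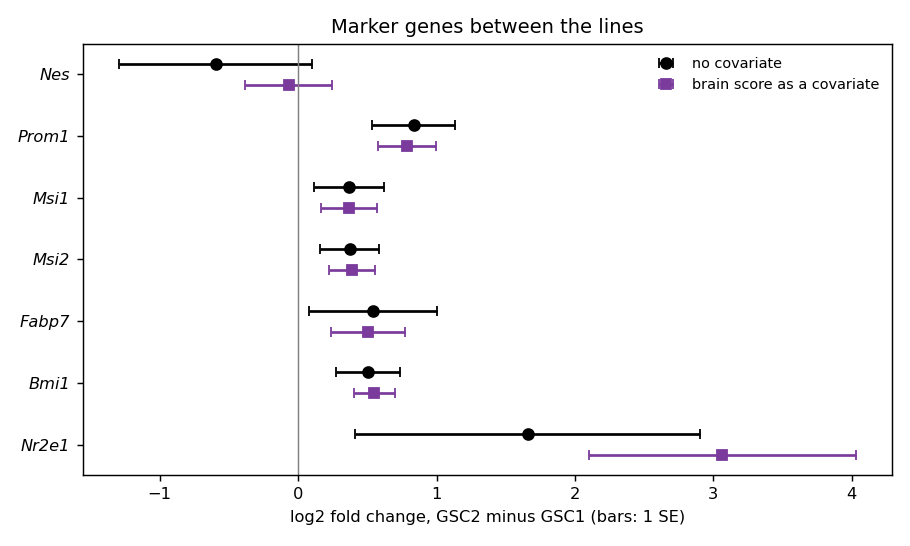
Log2 fold change, GSC2 minus GSC1 (horizontal axis, bars of 1 SE), for the 7 marker genes without a covariate (black circles) and with the brain score as a covariate (purple squares). Nes moves from -0.59 to -0.07 and Nr2e1 from 1.66 to 3.06, while the other 5 stay between 0.37 and 0.83 in both fits.

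The slope of each marker on the brain score was fitted within the lines. Nes fell by 0.70 on the log2 scale per unit of score (SE 0.13, edgeR quasi-likelihood adjusted p = 0.00410), and Fabp7 rose by 0.40 (SE 0.11, adjusted p = 0.0174). The slopes of Prom1 (0.20, SE 0.09, adjusted p = 0.0887), Msi1 (0.10, SE 0.08, adjusted p = 0.345), Msi2 (-0.08, SE 0.07, adjusted p = 0.360), Bmi1 (-0.15, SE 0.06, adjusted p = 0.0708) and Nr2e1 (-1.18, SE 0.46, adjusted p = 0.0646) did not pass. Nr2e1 did pass in DESeq2 (-1.33, adjusted p = 0.000179), with the oligodendrocyte list alone as the score (-1.07, 0.0464) and without GSC2 replicate 1 (-1.54, 0.0397), and over the other alternatives its adjusted p was 0.0540 to 0.633. Bmi1 passed without GSC2 replicate 3 (-0.15, adjusted p = 0.0490). A slope that passed was common: 47.3% of all genes tested had one, 23.8% rising and 23.5% falling, so 2 of 7 markers, 1 in each direction, is no larger a share than among all genes. Nes passed in each of the 7 fits that left out 1 tumour. Fabp7 did not pass with the neuron list alone as the score (adjusted p = 0.0642), nor without GSC1 replicate 2 (adjusted p = 0.0844), GSC1 replicate 3 (0.109) or GSC2 replicate 1 (0.0510). Without the 2 GSC1 tumours with hindbrain genes neither passed (Nes -0.38, Fabp7 0.43), nor without the 3 short-biased libraries (Nes -0.20, Fabp7 0.21), where 5 and 4 tumours remain. In those fits, added after seeing the data, the test called 0 and 1056 of all genes. With the replicate number as a block, also added then, the slopes were -0.32 for Nes and 0.12 for Fabp7, and neither passed.

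Length trends and mitosis genes also varied between the tumours. Genes of 6000 to 6600 bases, the class of Nes (6126 bases) and Msi2 (6436 bases), had a median log2 deviation of -0.21, -0.18 and -0.24 in the 3 short-biased libraries and of -0.02 to 0.27 in the others. Nes was lowest in those 3 libraries, at 116, 148 and 119 CPM. Msi2 was at 131, 135 and 144 CPM there, at 125 CPM in GSC1 replicate 1 and at 158 to 209.7 CPM in the rest. Fabp7 is short (880 bases), and genes of 700 to 1100 bases deviated by 0.15, 0.13 and 0.36 in the 3 libraries and by -0.25 to -0.03 in the others. After an offset for each library's length trend the slopes were -0.62 for Nes (edgeR quasi-likelihood adjusted p = 0.00194) and 0.28 for Fabp7 (adjusted p = 0.0182). Prom1 then rose as well (0.22, adjusted p = 0.0485). The mitosis list score, over 12 genes, was 6.46, 6.85, 4.37 and 4.90 across GSC1, in replicate order, and 6.64, 5.95 and 5.81 across GSC2. All 12 of its genes fell with the brain score, where 23.5% of all genes tested fell. Endothelial genes, another source of nestin, had list scores of 4.38, 4.35, 5.05 and 4.91 across GSC1, in replicate order, and of 4.19, 4.63 and 4.40 across GSC2. Apart from the fit with the length offset, the parts of length, mitosis and endothelial genes in the levels of the markers were not tested.

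**Figure D4:**
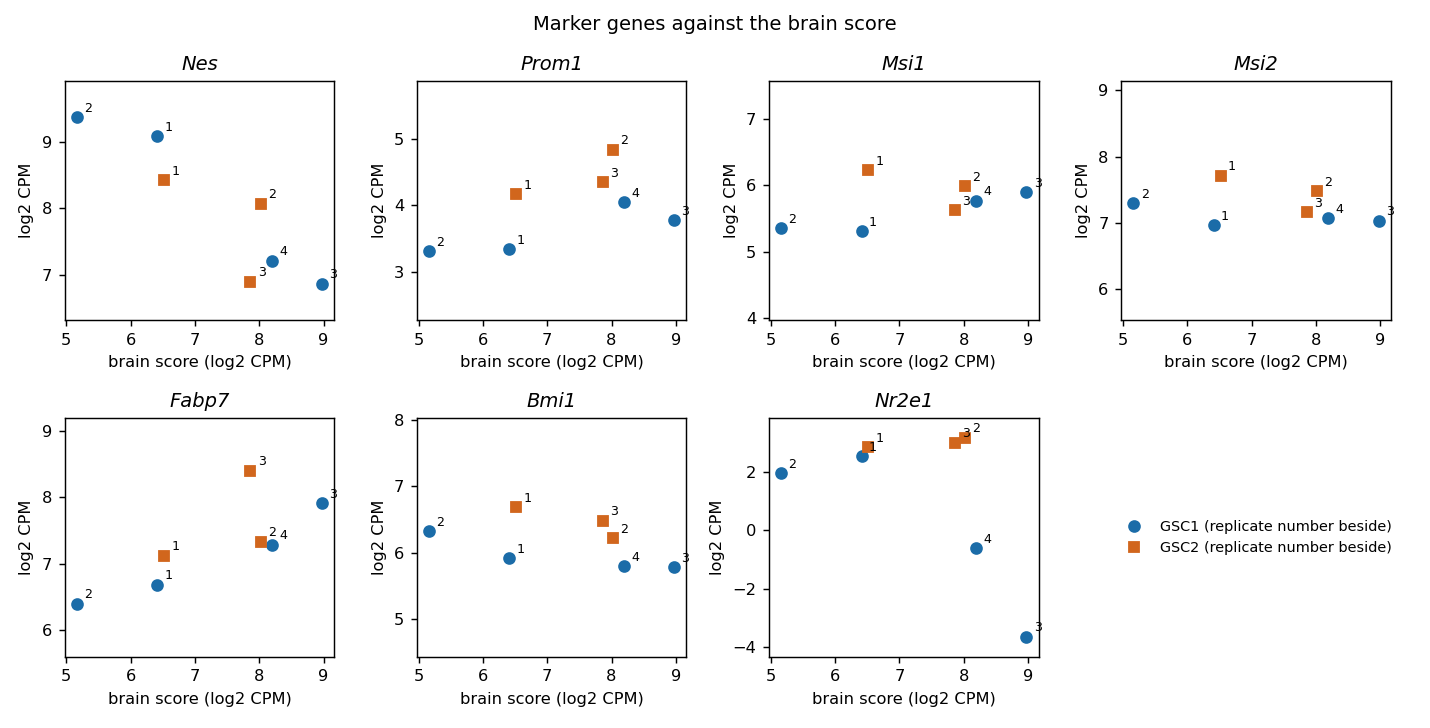
Log2 CPM of each marker (vertical axis, each panel spanning at least 3 units) against the brain score (horizontal axis, log2 CPM), with 1 point per tumour and its replicate number beside it, blue circles for GSC1 and orange squares for GSC2. Nes runs downward and Fabp7 upward, and Nr2e1 drops in GSC1 replicates 3 and 4 while the 3 GSC2 tumours lie level.

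Nr2e1 was low where the transcription factor genes Emx2 and Lhx2 were low. Emx2, a cortical patterning gene, was lowest in GSC1 replicates 3 and 4, with 1.55 and 3.48 CPM, and ranged from 18.5 to 46.6 CPM elsewhere. Lhx2, a LIM homeobox gene, measured 10.1 and 9.24 CPM there and 40.9 to 58.3 CPM elsewhere. Those 2 tumours carried the hindbrain genes. A link of Nr2e1 to brain region was not tested. Without those 2 tumours the Nr2e1 slope on the brain score was 0.30, the opposite sign, and without the 3 short-biased libraries it was 0.36. Neither slope passed (edgeR quasi-likelihood adjusted p = 0.633 and 0.514). The GSC1 tumours that remain, at 5.74 and 3.79 CPM, were still below the GSC2 tumours, at 7.17 to 8.98 CPM, with a log2 fold change of 0.73 and an edgeR quasi-likelihood adjusted p of 0.369.

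Other stem cell genes came from 4 lists with 31 members, of which 30 were tested and Sox1 was not analysed here. Between the lines 0 of the 30 passed in edgeR, DESeq2 or limma-voom. In edgeR 2 were at an unadjusted p under 0.05, beside 4.21% of all genes tested. Over all genes tested these tools called 0, 192 and 1. The fold was positive in 21 of the 30, with a median log2 fold change of 0.36. Over all genes tested it was positive in 7437 of 16068, with a median of -0.03. The 2 genes were Hey1, a Notch target gene (log2 fold change 0.79, SE 0.29), and Thbs4, a thrombospondin gene (2.20, SE 0.82). Thbs4 was at 23.5 CPM in GSC2 replicate 3 and between 1.23 and 3.33 CPM in the other 6 tumours, so that fold rests on 1 tumour. Hey1 was at 41.9, 35.2, 68.0 and 67.1 CPM in GSC1 and at 79.3, 94.3 and 102 CPM in GSC2, with no overlap. The lines did not overlap for 5.58% of all genes tested, and with GSC2 above for 3.05%.

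With the brain score, 8 of the 30 rose and 12 fell, beside 23.8% and 23.5% of all genes tested. Among the 7 transcription factor genes tested, 4 fell and 1 rose. Those that fell include Emx2 (slope -0.94), Lhx2 (-0.62) and Sox2 (-0.30, a pluripotency and neural stem cell factor). Notch and Id genes were divided, 3 up and 3 down: the receptor gene Notch1 (-0.61) and its effector Hes1 (-0.57) fell, while Hes5 (1.00) and the differentiation inhibitor gene Id4 (0.71) rose. Of the 5 radial glia and filament genes 4 rose: the astrocyte filament gene Gfap (1.05), Synm (0.59), Hopx (1.49) and the glutamate transporter gene Slc1a3 (0.72). The exception, Vim, whose product vimentin forms filaments together with nestin, fell (-0.28), and it was chosen after its values were seen. Of 10 surface and matrix genes 4 fell and 0 rose: the cadherin gene Cdh2 (-0.38), the integrin gene Itga6 (-0.36), the tenascin gene Tnc (-0.45) and the hyaluronan receptor gene Cd44 (-0.26). Nes had a slope of the same sign as Vim, and Fabp7 as Gfap and Slc1a3.

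**Figure D5:**
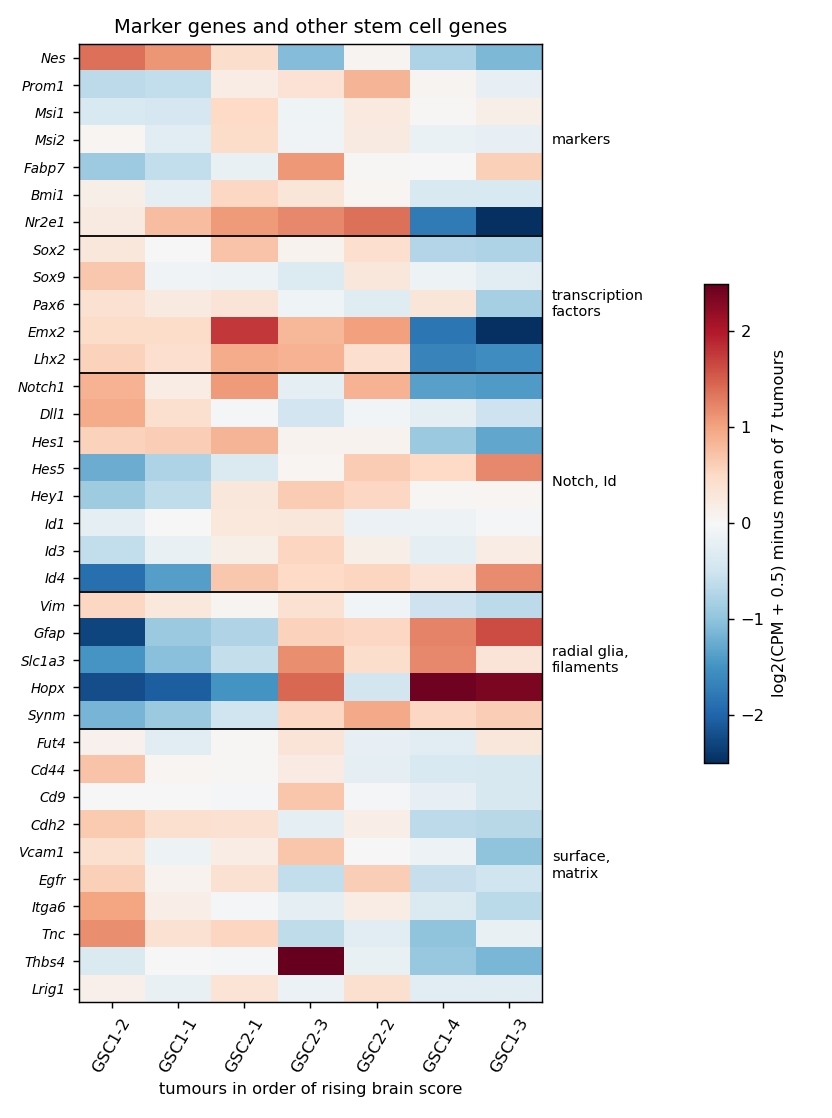
Deviation of each gene from its mean over the 7 tumours, as log2(CPM + 0.5) on a colour scale limited to 2.5 in either direction, for the 7 markers and 28 other stem cell genes (rows, black lines between lists). Columns are tumours in order of rising brain score, from GSC1 replicate 2 to GSC1 replicate 3, and show Nes and Vim higher on the left and Fabp7, Gfap and Hopx higher on the right.

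Genes that act with the markers, or belong to their families, were also compared. Of 29 tested in 4 lists, 0 passed in edgeR, DESeq2 or limma-voom (0 at an unadjusted p under 0.05 in edgeR), with a median log2 fold change of 0.00. Over all genes tested the 3 tools called 0, 192 and 1. The 29 genes were 18 subunit genes of Polycomb repressive complex 1, 5 genes for cofactors of TLX, 3 Musashi target genes and 3 relatives of Fabp7 and Prom1. Of the 18 Polycomb genes 9 fell and 2 rose with the brain score, where 23.5% of all genes fell and 23.8% rose. The 4 with the smallest p were Cbx2 (slope -0.63), Pcgf6 (-0.61), Pcgf2 (-0.61) and Pcgf3 (-0.37). Bmi1 itself, at -0.15, did not pass. Among Musashi targets Numb, a Notch inhibitor gene (-0.33), and Cdkn1a, a cell cycle inhibitor gene (-0.47), fell, and Numbl (0.01) did not pass. Of the TLX cofactor genes the histone demethylase gene Kdm1a fell (-0.27) and the other 4 did not pass. Fabp5 and Fabp3, which encode other lipid carriers, rose (0.66 and 0.87), as Fabp7 did.

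The genes whose log2 CPM over the 7 tumours was most like that of a marker were taken as the 3 highest Pearson correlations among 11971 genes with a mean of at least 5 CPM, predicted genes left out. For Nes they were Hp1bp3 (r = 0.997), Supt5 (0.996) and Sh2b1 (0.995), and for Fabp7 they were Cdc42se2 (0.987), Rnf180 (0.986) and Slc25a20 (0.982). Of those most like Prom1, Serpina3h (0.990) and Clmn (0.969) are given, and Bmi1 was most like Zfp41 (0.984), Dcbld1 (0.974) and Dhx32 (0.968). Nr2e1 was most like Trim25 (0.991), Oasl1 (0.985) and Arhgap39 (0.978). Msi1 was most like Matr3 (0.965), Eid2b (0.964) and Clip4 (0.957), and Msi2 most like Trps1 (0.971), Nhs (0.971) and Eogt (0.958). These are the extremes of many correlations over 7 libraries that share differences in brain score and length trend, and describe these libraries only. None of the 7 markers was among the 3 genes most like another.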

How the data were processed

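Per the labels' protocols, total RNA was purified with a Qiagen column kit and sequenced from NEBNext Ultra libraries. The authors deposited raw read counts for each Ensembl mouse gene. Per the submitters' processing notes the tools were TopHat2 2.0.11 and HTSeq, and the builds named are mm9 and dm3, without their role. Groups and replicate numbers come from the sample titles, and the series' design text calls the tumours independent. Whether tumours of a line came from separate cultures is not given in the sources used here. The 5 summary lines that name no gene did not enter library sizes or tests, and the line for reads on no gene held 6.19 to 14.2% of the reads listed. Symbols (32897 of 37620 identifiers) and transcript lengths (97.2% of genes tested) come from GENCODE on GRCm38, and no coordinates of the deposited build appear. No library was a copy of another (lowest chi-square per degree of freedom over pairs, 66.5).

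The test of GSC2 against GSC1 used edgeR 4.0.16 under R 4.3.3 (TMM, filterByExpr, robust quasi-likelihood fit, Benjamini-Hochberg adjustment over all genes, threshold 0.05), and the slope on the brain score was tested in the same way with line in the model. The score holds no marker gene. List scores are mean log2 CPM with a prior count of 2. DESeq2 1.42.0 and limma-voom 3.58.1 were alternatives. The fits were tested on simulated data, with scatter estimated after the brain score was fitted. In the simulated comparison of lines the tumours did not differ in brain score, so it does not cover that variation. The 7 genes were given; within lists up to 4 genes were named by smallest unadjusted p in the fit described. The genes, the lists and the doubts about single libraries were chosen with earlier results of these data known. Results for some listed genes are not reported here.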

Additional observations from a re-analysis of the deposited data

How the results depend on the processing

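The count of 0 marker genes that differed between the lines was the same in all 19 alternatives, and all 133 fold changes kept their direction and their side of the threshold. Over all genes the count of 0 became 1 with no filter, 1 in limma-voom, 192 in DESeq2, 128 with the brain score, 224 with the score and the length offset, 55 without the 3 short-biased libraries and 44 without the 2 tumours with hindbrain genes. It was 0 (lowest and highest) when single tumours were left out. Of the 7 markers, 2 followed the score; the count was 1 with the neuron list alone as the score, and 1 to 3 with single tumours left out, 1 of them without GSC1 replicate 2 or GSC1 replicate 3. It was 3 in DESeq2 and with the oligodendrocyte list alone (Nes, Fabp7 and Nr2e1 in both) and with the length offset (Nes, Fabp7 and Prom1). It was 0 without the 3 short-biased libraries, without the 2 tumours with hindbrain genes and with the replicate block. The count over all genes, 7593, was 3736 (without GSC1 replicate 2) to 8158 with single tumours left out, 4641 without GSC1 replicate 3, 8392 in DESeq2, 1056 without the 3 short-biased libraries, 0 without the 2 tumours with hindbrain genes (1850 at an unadjusted p under 0.05) and 1951 with the replicate block. Those 3 fits leave few residual degrees of freedom and were added after seeing the data. Slopes changed sign for Msi2 with the length offset (0.022), for Msi1 without the 3 short-biased libraries (-0.075) and without the 2 tumours with hindbrain genes (-0.16), and for Nr2e1 in the same fits (0.36 and 0.30). The cause of these changes was not tested. Deviations of same-numbered tumours correlated at 0.58, -0.31 and 0.41 over genes. GSC2 replicate 1 correlated at 0.70 with GSC1 replicate 2, which was also low in brain score. Such deviations hold differences in brain score, so they cannot decide whether replicate numbers pair the tumours. With the number as a block the comparison of lines called 0 of all genes and 0 of the 7 markers. Depth limits Nr2e1 most, with 0 to 256 reads in a library.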
